A study of Mus musculus with 8 samples.

Results

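Insulin-like growth factor 1 (IGF1), its receptor and the IGF binding proteins are described here as 9 genes, looked up by name: Igf1, Igf1r and Igfbp1 to Igfbp7. They were chosen with earlier results of these data known. Each had 1 entry among the 22878 gene entries of the RNA-Seq data, so that all 9 were found. RNA-Seq was carried out on 8 libraries of 5 mouse cell lines to ask how far the transcriptomes of induced pluripotent stem cells (iPSCs) of different tissue origin differ from those of embryonic stem cells (ESCs). R1 is an ESC line, and it was the only one. The lines 16-6, 32, S8 and T2 are second generation iPSCs. They were made from somatic cells of 8-week-old mice that had themselves been grown entirely from an iPSC line by tetraploid complementation, and all of those cells carried Oct4, Sox2, c-Myc and Klf4 under control of doxycycline. Doxycycline had been withdrawn before colonies were picked. Line 16-6 came from hematopoietic progenitors of the bone marrow, 32 from adipocyte progenitors of inguinal fat, S8 from epidermal cells and T2 from the epithelium of the stomach. R1, 16-6 and 32 had 2 libraries each, which the study calls biological replicates, and S8 and T2 had 1 library each. Each origin was represented by 1 line, so origin and line cannot be told apart. All 5 lines were grown with LIF and serum on mouse embryonic fibroblasts (MEFs) that had been treated with mitomycin C, and no removal of these feeder cells before RNA extraction is stated. The labels give the tissue as embryo for every sample, whereas the study's methods describe RNA from pellets of cultured cells. Igf1 served the study as a marker gene of adipose tissue, the tissue from which line 32 was derived.

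IGF1 and IGF2 are secreted peptides related to insulin. Both signal through the receptor tyrosine kinase IGF1R, which acts through the insulin receptor substrates and the PI3K-AKT pathway on growth and survival. The binding proteins IGFBP1 to IGFBP6 are secreted, hold IGFs with high affinity and control how much ligand reaches the receptor, while IGFBP7 is a related protein that binds IGFs weakly. In cultures of pluripotent cells, fibroblast feeders are a known source of IGFs and of secreted binding proteins.

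The genes lie on 6 chromosomes of the mm9 build. Igf1 is at chr10:87321801-87399792 on the plus strand and Igf1r at chr7:75097143-75378553 on the plus strand. The binding protein genes include pairs of neighbours with no other entry between them. Igfbp2 at chr1:72871077-72899045 (plus) faces Igfbp5 at chr1:72904639-72921439 (minus) across 5593 bases, and Igfbp1 at chr11:7097790-7102549 (plus) faces Igfbp3 at chr11:7106096-7113926 (minus) across 3546 bases. The others are Igfbp4 at chr11:98902574-98913957 (plus), Igfbp6 at chr15:101974617-101979943 (plus) and Igfbp7 at chr5:77778265-77837070 (minus). Each value below stands for all exons of the gene. The Igfbp7 entry overlaps that of Polr2b, which lies on the opposite strand, by 89 bases. The sources used here do not say that strand was used in counting, so reads in that overlap cannot be told apart.

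The start regions of the members differed in CpG content. In the RefSeq promoter table (build GRCm38.p6) all 9 members were matched with 10 start sites, Igfbp2 having 2. Over the 250 bases before the start, the median of 32851 promoters was 6 CpG dinucleotides. Igf1 and Igfbp1, the members with the lowest RNA levels below, had 5 CpGs each, the lowest number among the members. Igfbp5 had 10, Igfbp6 had 7, Igfbp4 had 22, Igfbp7 had 26, Igfbp3 had 32 and Igf1r had 42, while the start sites of Igfbp2 had 14 and 11. The windows of Igf1 and Igfbp1 are shown for these low levels, and those of Igfbp5, Igfbp6 and Igfbp7 because these 3 genes had the largest ratios between lines among the tested members. They read 5′ to 3′ in the direction of transcription and end at the base before the start, with each CpG in capitals.
Igf1, chr10:87860861-87861110, plus strand: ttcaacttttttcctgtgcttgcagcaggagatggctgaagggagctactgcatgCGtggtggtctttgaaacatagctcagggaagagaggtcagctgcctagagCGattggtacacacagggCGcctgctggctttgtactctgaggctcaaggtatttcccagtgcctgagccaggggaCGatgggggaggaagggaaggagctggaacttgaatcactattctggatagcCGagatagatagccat
Igfbp1, chr11:7197537-7197786, plus strand: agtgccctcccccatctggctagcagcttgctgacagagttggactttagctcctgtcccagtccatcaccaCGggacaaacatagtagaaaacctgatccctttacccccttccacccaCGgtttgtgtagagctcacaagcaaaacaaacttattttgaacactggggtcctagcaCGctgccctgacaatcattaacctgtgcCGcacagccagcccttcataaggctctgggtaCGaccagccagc
Igfbp5, chr1:72874866-72875115, minus strand: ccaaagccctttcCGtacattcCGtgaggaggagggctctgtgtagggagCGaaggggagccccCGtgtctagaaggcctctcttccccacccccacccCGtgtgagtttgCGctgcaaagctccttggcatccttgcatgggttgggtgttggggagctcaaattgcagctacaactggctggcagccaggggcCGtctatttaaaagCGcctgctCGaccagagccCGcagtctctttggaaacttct
Igfbp6, chr15:102143936-102144185, plus strand: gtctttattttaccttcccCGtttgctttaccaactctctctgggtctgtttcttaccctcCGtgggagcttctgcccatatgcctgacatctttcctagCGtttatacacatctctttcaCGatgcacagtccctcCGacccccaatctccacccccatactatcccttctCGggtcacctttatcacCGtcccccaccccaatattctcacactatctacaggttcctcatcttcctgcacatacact
Igfbp7, chr5:77408046-77408295, minus strand: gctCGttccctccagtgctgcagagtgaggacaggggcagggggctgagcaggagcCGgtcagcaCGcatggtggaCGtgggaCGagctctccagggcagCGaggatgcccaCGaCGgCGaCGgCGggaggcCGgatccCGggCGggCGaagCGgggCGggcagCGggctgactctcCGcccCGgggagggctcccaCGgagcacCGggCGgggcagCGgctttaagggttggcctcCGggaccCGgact

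Both strands of these windows were searched for TATAAA, the core of a TATA box, and for GGGCGG, the GC box, which cannot overlap each other because they share no letters. TATAAA was present once in Igfbp6 and once in Igfbp4 and is held by 12.4% of all promoters in the table. GGGCGG occurred 4 times in Igfbp7, 3 times in the first start site of Igfbp2 and 2 times in Igf1r, against 32.7% of promoters with at least 1 match. Igfbp5, Igfbp6 and Igfbp7, which had similar orders of the lines in their RNA, thus shared neither motif in these windows. A match or its lack describes these letters only.

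Levels are given as FPKM as estimated by Cufflinks. In principle this is the number of sequenced fragments divided by transcript length and library depth, so that different genes can be compared. All were divided by 1 constant, because the deposited values were on an unusual scale, which leaves every ratio as deposited. The confidence limits that Cufflinks gave with each value implied a depth of 15.5 to 16.7 per library, in units of 1000000 fragments. These limits cover the uncertainty of an estimate within a library and not variation between cultures. For some genes they hold more than counting error, so the fragment numbers derived from them are approximate. Nanog had 153 and 160 FPKM in the 16-6 libraries, but 426.4 and 2570.8 implied fragments. The study lists more mapped reads and a lower mapped share for S8 and T2, the lines with single libraries, than for the other libraries, which the depth implied by the limits does not show. The part of this in the differences of S8 and T2 was not tested. FPKM and implied fragments also did not keep the same proportion in all libraries. Igfbp2 had 322 FPKM from 4854.6 implied fragments in T2, but 251 from 4731.8 in the second R1 library. The typical value of 1 fragment there was 0.948 and 0.959 of that in the first R1 library. FPKM thus hold a conversion that differs by gene and library, and its part in the differences was not tested. The 10 markers of pluripotent cells were detected in every library, with Pou5f1 between 485 and 1020 FPKM. Markers of adipocytes, epidermis, stomach and blood, which stand for the tissues of origin, summed to at most 12.3, 1.08, 6.19 and 49.7 FPKM in any library, and these highest sums were all in R1. Each iPSC line was set against R1, and 16-6 against 32, by limma fits of log2(FPKM + 1) over 13693 genes, and a gene was called where the Benjamini-Hochberg adjusted p was under 0.05 and the difference at least 1 on the log2 scale. The fit gave S8 and T2, with 1 library each, the spread of the replicated lines.

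Of the 9 members, 7 passed the minimum of 1 FPKM in at least 1 library and entered the test, and Igf1 and Igfbp1 did not. The difference between replicate 1 and replicate 2 in the tested members was 0.35 on the log2 scale for Igfbp6 in line 32, and it lay between −0.17 and 0.12 in all other cases. The plot of the members by library shows these levels with their limits.

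**Figure D1:**
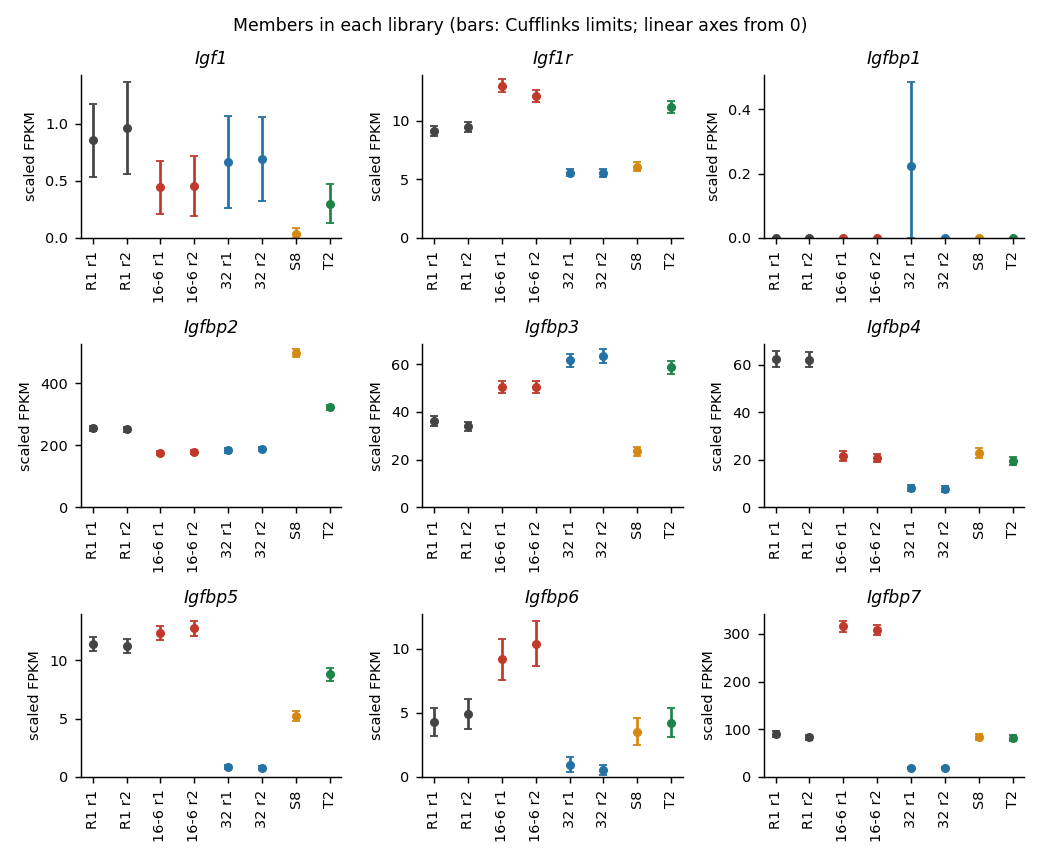
Level of the 9 genes in each of the 8 libraries, as scaled FPKM on linear axes that start at 0, coloured by line, with r1 and r2 for the replicate libraries and bars for the limits given by Cufflinks. Igfbp4 is highest in both R1 libraries (62.1 and 62.5), Igfbp7 is highest in both 16-6 libraries (308 and 316), and Igfbp5, Igfbp6 and Igfbp7 are lowest in both libraries of 32.

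The ligand Igf1 was under 1 FPKM in every library, and in S8 its limits included 0. It measured 0.853 and 0.96 FPKM in R1, 0.663 and 0.692 in 32, 0.441 and 0.453 in 16-6, 0.300 in T2 and 0.0321 in S8. The order of the lines in FPKM was thus R1, 32, 16-6, T2 and S8, and the S8 library was the lowest of the 8. The values rest on few fragments, since 28.6 and 22.8 were implied for the R1 libraries, 10.8 to 14.2 for the libraries of 16-6, 32 and T2, and 1.5 for S8. These numbers are approximate. They do not order 16-6, 32 and T2, whose order is thus one in FPKM only. The part of the conversion to FPKM in the differences of Igf1 was not tested. The limits of neighbouring lines from R1 down to T2 overlapped. By these limits S8 stood apart, with an upper limit of 0.0848 against a lower limit of 0.132 in T2. The S8 limit rests on 1.5 implied fragments in a single library, so this separation is not firm. Line 32, of adipose origin, had limits that overlapped those of R1, 16-6 and T2.

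Because Igf1 did not reach the minimum level, its test was added afterwards without that minimum and with a pseudocount of 0.1, which compresses low values less. T2 then differed from R1 by −1.33 on the log2 scale. The difference was −0.88 ± 0.12 (SE) in 16-6 (limma, adjusted p = 0.00813) and −0.37 ± 0.12 in 32 (adjusted p = 0.0678). These SEs come from the spread between replicates in few libraries. The limits of single values were wide, 0.132 to 0.470 FPKM in T2 and 0.207 to 0.675 in the first 16-6 library. Counting error may thus exceed the SEs, and the adjusted p may look firmer than so few fragments allow. With a pseudocount of 1, also without the minimum, the difference of 16-6 was −0.40 ± 0.04 (limma, adjusted p = 0.00344). That of 32 was −0.18 ± 0.04 (adjusted p = 0.0239), and that of T2 was −0.55. This setting was not added afterwards. The sizes thus depended on the pseudocount. Line 32 had an adjusted p under 0.05 only with a pseudocount of 1, and T2 exceeded 2-fold only with 0.1. No difference is given for S8, whose single value rests on fewer than 3 implied fragments. Among the other ligands, Igf2, the fetal IGF, was the main ligand transcript in every line, with 110 and 116 FPKM in R1, 96 and 91.1 in 16-6, 14.3 and 13.4 in 32, 26.6 in S8 and 39.2 in T2. The insulin genes Ins1 and Ins2 were listed at 0 in all 8 libraries.

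The receptor Igf1r was expressed in all lines within a narrow range. It measured 9.1 and 9.44 FPKM in R1, 13.02 and 12.1 in 16-6, 5.58 and 5.53 in 32, 6.08 in S8 and 11.2 in T2. The line means spanned 2.26-fold, the smallest span among the 7 tested members. From the top, 16-6 and T2 had overlapping limits, R1 was apart from both, and S8 and 32 came last with overlapping limits. In implied fragments T2, with 2010.7, was nearer to R1, with 1892.7 and 1896.1, than in FPKM. No iPSC line was called against R1. The differences were 0.40 ± 0.06 for 16-6, −0.65 ± 0.06 for 32, −0.54 ± 0.07 for S8 and 0.25 ± 0.07 for T2 (limma, adjusted p between 0.000661 and 0.0307), all smaller than 2-fold. Between the 2 lines of mesodermal origin Igf1r was higher in 16-6 than in 32 by 1.05 ± 0.06 (adjusted p = 0.00013), and this call was lost under quantile normalization, where the difference was 0.82.

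Igfbp1, a binding protein made mainly by the liver, was listed at 0 in 7 of the 8 libraries. The first library of 32 had 0.225 FPKM from 3 implied fragments, and the second library of 32 had 0. A count of 3 fragments would correspond to between 0.2 and 0.22 FPKM, depending on the library. Igfbp1 could therefore not be ordered between lines at this depth. Its neighbour Igfbp3 was expressed in every library.

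Igfbp2, which is abundant in embryonic tissues, had the highest RNA level of the 9 genes in every line but 16-6. Its level was 255 and 251 FPKM in R1, 176 and 178 in 16-6, 184 and 189 in 32, 497 in S8 and 322 in T2. In FPKM, S8 was highest, followed by T2 and R1, each apart from the next in its limits, while 32 and 16-6 overlapped at the bottom. The implied fragments were 6335.3 in S8, 4854.6 in T2, and 4661.8 and 4731.8 in R1. T2 was thus close to R1 in fragments and apart from it in FPKM. The part of the conversion to FPKM in these differences was not tested. The difference from R1 was 0.97 ± 0.04 in S8 (limma, adjusted p = 0.000114), with a 95% interval of 0.86 to 1.08, so that it lay just under the 2-fold criterion and was not called. The other lines differed from R1 by 0.35 ± 0.04 in T2, −0.44 ± 0.04 in 32 and −0.51 ± 0.04 in 16-6.

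Igfbp3 encodes the main carrier of IGFs in blood. It measured 36.3 and 33.9 FPKM in R1, 50.3 and 50.6 in 16-6, 61.6 and 63.3 in 32, 23.6 in S8 and 58.6 in T2. Line 32 had the highest level, overlapping with T2 in its limits, and 16-6, R1 and S8 followed, each apart from the next. None of the 4 differences from R1 reached 2-fold. They were 0.51 ± 0.05 for 16-6, 0.81 ± 0.05 for 32, 0.72 ± 0.06 for T2 and −0.55 ± 0.06 for S8 (limma, adjusted p between 0.000183 and 0.000821). Igfbp3 was the only tested binding protein whose level was higher in 32 than in R1. Between the single libraries of S8 and T2 it was also the only tested member that differed by at least 1 in log2(FPKM + 1), at −1.28 (S8 minus T2), a comparison without replicates for which no test was made. Of all tested genes, 3.32% reached that difference.

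Igfbp4 was lower in every iPSC line than in R1. This gene encodes a binding protein that is cleaved by the protease PAPP-A. The level was 62.5 and 62.1 FPKM in R1, 21.6 and 20.8 in 16-6, 8.27 and 7.63 in 32, 22.9 in S8 and 19.6 in T2. Every iPSC library lay below both R1 libraries. The differences from R1 were −1.51 ± 0.05 in 16-6 (limma, adjusted p = 0.000109), −2.82 ± 0.05 in 32 (adjusted p = 1.12e-05), −1.40 ± 0.06 in S8 (adjusted p = 0.000112) and −1.62 ± 0.06 in T2 (adjusted p = 0.000157), and all 4 were called. They share the same R1 libraries, so they are not 4 independent comparisons. Among the iPSC lines, S8, 16-6 and T2 overlapped in their limits, and 32 was lower than all 3. The mean of 32 was lower than that of R1 by a factor of 7.84.

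Igfbp5, a binding protein that also binds extracellular matrix, was lowest in 32 and highest in 16-6 and R1. It measured 11.4 and 11.2 FPKM in R1, 12.3 and 12.7 in 16-6, 0.865 and 0.755 in 32, 5.25 in S8 and 8.81 in T2. The limits of 16-6 and R1 overlapped, and T2, S8 and 32 followed, each apart from the next. In implied fragments S8, with 550, was further from R1, with 1544.8 and 1480, than in FPKM. The difference between 32 and R1 was −2.77 ± 0.06 (limma, adjusted p = 1.55e-05). That of S8 was −0.98 ± 0.07 (adjusted p = 0.000314) and fell just short of 2-fold, and T2 differed by −0.33 ± 0.07 (adjusted p = 0.0138). For 16-6 it was 0.14 ± 0.06, with a 95% interval of −0.01 to 0.29 (adjusted p = 0.104). Igfbp2, the neighbour of Igfbp5, had another order of lines and was highest in S8.

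Igfbp6, which prefers IGF2 over IGF1, was expressed at a lower level but followed a similar order. The libraries gave 4.28 and 4.89 FPKM in R1, 9.15 and 10.4 in 16-6, 0.968 and 0.542 in 32, 3.54 in S8 and 4.24 in T2. R1, T2 and S8 overlapped in their limits, 16-6 lay above them and 32 below. The 32 libraries rest on 12 and 7 implied fragments. Against R1, the difference was −1.68 ± 0.14 in 32 (limma, adjusted p = 0.000605) and was called. In 16-6 it was 0.95 ± 0.14 (adjusted p = 0.00428) and missed the 2-fold criterion, which it passed at 1.03 when either the second R1 library or the first 16-6 library was left out. S8 and T2 gave −0.30 (95% interval −0.75 to 0.15) and −0.09 (−0.54 to 0.36), and the sign of the latter turned under quantile normalization and equal library totals.

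Igfbp7 had the largest ratio between its highest and lowest line among the 7 tested members. It reached 316 and 308 FPKM in 16-6, against 89.9 and 82.7 in R1, 84.5 in S8, 81.5 in T2, and 18.6 and 18.4 in 32. R1, S8 and T2 thus formed a middle group in FPKM with overlapping limits, far from 16-6 above and 32 below. In implied fragments S8 (685.8) and T2 (769.4) were lower than R1 (921.7 and 893.6). Their near equality with R1 thus holds for FPKM only. The difference from R1 was 1.84 ± 0.05 in 16-6 (limma, adjusted p = 7.61e-05) and −2.16 ± 0.05 in 32 (adjusted p = 1.59e-05). In S8 it was −0.03 (95% interval −0.18 to 0.13) and in T2 −0.08 (−0.24 to 0.07), and these signs turned without the first R1 library and with equal library totals, respectively. The lines of mesodermal origin, 16-6 and 32, thus differed from R1 in opposite directions. The mean of 16-6 exceeded that of 32 by 16.85-fold.

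In numbers of calls, 16-6 differed from R1 in 2 of the 7 tested members, Igfbp7 being higher and Igfbp4 lower, where 7.11% of all tested genes were called (3.58% higher and 3.53% lower). Line 32 differed from R1 in 4 of 7, all lower, namely Igfbp4, Igfbp5, Igfbp6 and Igfbp7, where 9.77% of all genes were called (1.54% higher and 8.23% lower). S8 and T2 differed from R1 in 1 of 7, Igfbp4, against 16.7% of all genes in S8 (6.93% higher and 9.74% lower) and 10.5% in T2 (3.95% higher and 6.54% lower). For S8 and T2 the share of members called, 14.3%, was thus near that of all genes. Between 16-6 and 32, 5 of 7 members were called and all 5 were higher in 16-6, where 10.3% of all genes were called (9.22% higher and 1.09% lower). These were Igfbp7 at 4.0 ± 0.05, Igfbp5 at 2.90 ± 0.06, Igfbp6 at 2.63 ± 0.14, Igfbp4 at 1.31 ± 0.05 and Igf1r at 1.05 ± 0.06 (limma, adjusted p between 2.38e-06 and 0.000133). The other 2 members were Igfbp2, with −0.07 (95% interval −0.16 to 0.02), and Igfbp3, with −0.30 ± 0.05, and both signs turned when libraries were set to equal totals. The median difference over the 7 members was 1.31 between 16-6 and 32 and −1.68 between 32 and R1, beside −0.06 and −0.02 over all tested genes. The comparisons with R1 all use the same 2 libraries of R1. The plot of the differences from R1 shows Igfbp4 as the only one of the 7 members whose 4 estimates had the same sign.

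**Figure D2:**
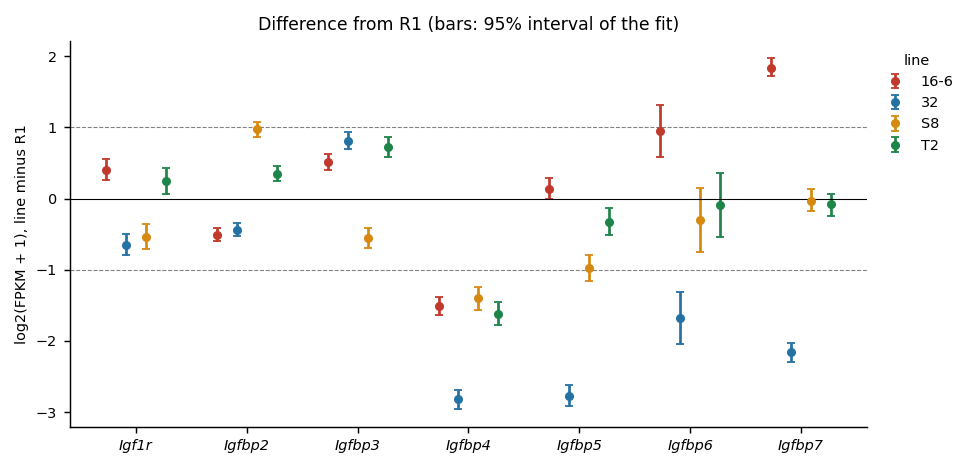
Difference of each iPSC line from R1 in log2(FPKM + 1), for the 7 members that were tested, with bars for the 95% interval of the limma fit and dashed lines at the 2-fold criterion. Igfbp4 lies below −1 in all 4 lines (−1.40 to −2.82), while Igfbp7 lies at 1.84 in 16-6, −2.16 in 32 and near 0 in S8 and T2.

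The make-up of binding protein RNA therefore differed between lines. As FPKM are corrected for length, the 7 Igfbp genes can be added within a library. The sum was 459 and 446 FPKM in R1, 585 and 581 in 16-6, 274 and 280 in 32, 637 in S8 and 495 in T2. Igfbp2 held 55.5% and 56.3% of it in R1, 67.0% and 67.6% in 32, 65.1% in T2 and 78.0% in S8. In 16-6 the largest part was Igfbp7, with 54.0% and 53.0%, and Igfbp2 held 30.1% and 30.7%. Igfbp4 held 13.6% and 13.9% in R1 and between 2.73% and 3.95% in all iPSC libraries. Igfbp3 held 22.5% and 22.6% in 32 and at most 11.8% in any other library. For each of these 4 genes, the shares of the 2 libraries of a replicated line lay closer to each other than to those of the other replicated lines. No test was made on the shares.

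**Figure D3:**
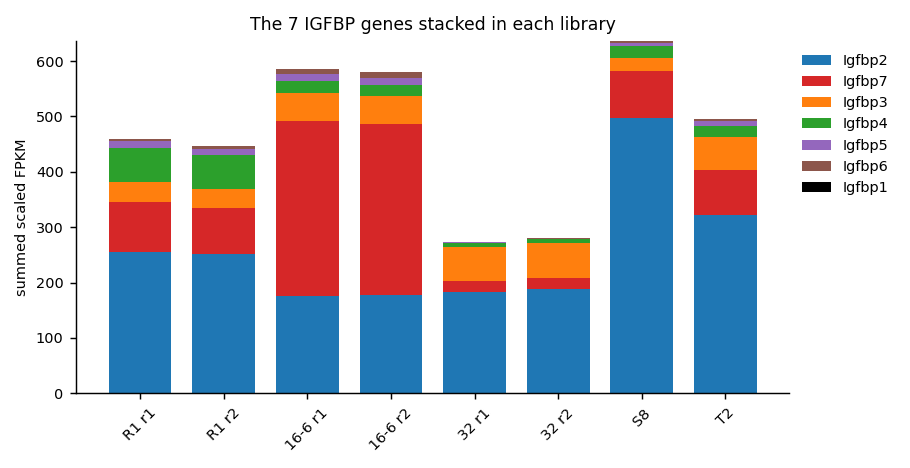
Scaled FPKM of the 7 Igfbp genes stacked in each library, from 0, with r1 and r2 for the replicate libraries. Igfbp2 is the largest part in R1, 32, S8 and T2, and Igfbp7 is the largest in both 16-6 libraries (54.0% and 53.0%).

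Markers of fibroblasts, the feeder cells of these cultures, varied along with several members. The sum of 13 markers was 958 and 988 FPKM in R1, 2474 and 2467 in 16-6, 143 in each of the 32 libraries, 498 in S8 and 726 in T2. None of the 13 was at 0 in any library. Of the 13, the comparison with R1 called 7 in 16-6, of which 5 were higher, 11 in 32, all lower, 9 in S8, of which 8 were lower, and 8 in T2, of which 7 were lower. Of all tested genes, 7.11% were called in 16-6, 9.77% in 32, 16.7% in S8 and 10.5% in T2. All 13 were higher in 16-6 than in 32, where calls over all genes leaned the same way (9.22% higher and 1.09% lower). The order 16-6, R1, T2, S8, 32 of these sums was the order of Igfbp5 and of Igfbp6, and it was that of Igfbp7 except that S8 and T2 changed places. The median Pearson correlation with the 13 markers over the 8 libraries was 0.94 for Igfbp6, 0.92 for Igfbp7, 0.91 for Igfbp5, 0.85 for Igf1r, 0.70 for Igfbp4, −0.02 for Igfbp2 and −0.28 for Igfbp3. These values only describe 8 libraries of 5 lines, in which replicates share a line. Decorin (Dcn), a matrix proteoglycan of fibroblasts, was highest in R1 with 216 and 204 FPKM, against 32.9 and 33.3 in 16-6, 0.605 and 0.89 in 32, 11.1 in S8 and 11 in T2, and R1 was also the highest line for Igfbp4. Dcn does not stand for the whole list. Of the 7 markers called in 16-6, only Dcn and Lum were lower than in R1. The other 5 were higher, such as Acta2 with a mean of 967 FPKM in 16-6 against 67.1 in R1. In bulk RNA, fewer cells of a type and less RNA per cell cannot be told apart. The part of feeder cells in the differences of Igf1r and Igfbp4 to Igfbp7 was not tested. Igfbp2 and Igfbp3 did not have the order of these sums. Line 32, with the lowest sum, had the highest level of Igfbp3, and S8 had the highest level of Igfbp2. The part of feeder cells in the levels of Igfbp2 and Igfbp3 was not tested either.

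**Figure D4:**
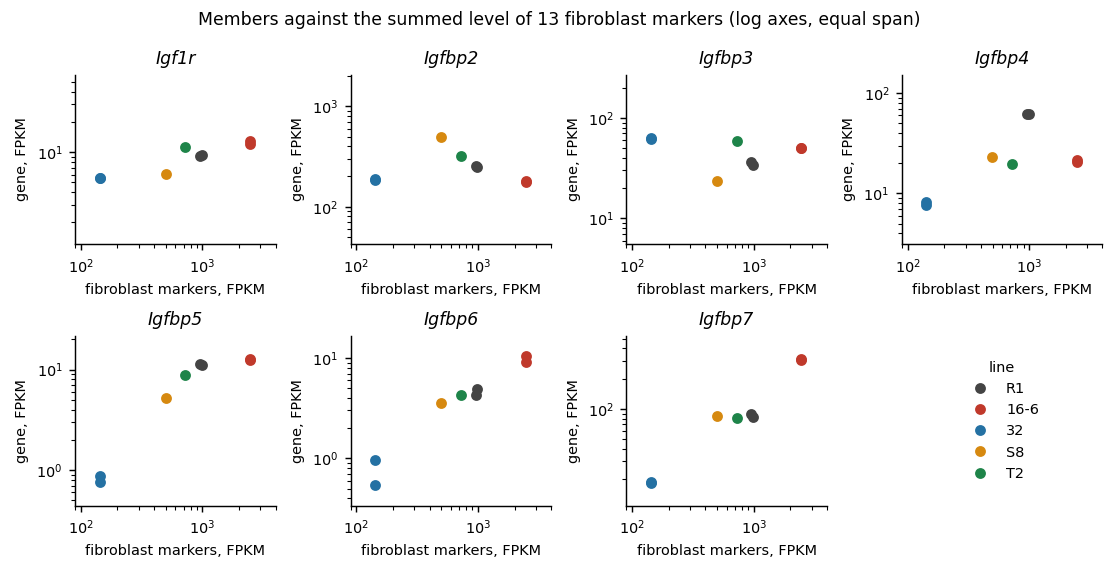
Scaled FPKM of each tested member (vertical) against the summed scaled FPKM of 13 fibroblast markers (horizontal) in the 8 libraries, on log axes with the same span in every panel, coloured by line. Igfbp5, Igfbp6 and Igfbp7 are lowest in 32 and highest in 16-6, as the marker sum is (143 and 2467 to 2474), while Igfbp2 is highest in S8 and Igfbp4 in R1.

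The genes most like each member were sought by Pearson correlation of log2(FPKM + 1) over the 8 libraries, among 1035 genes whose line means spanned at least 2 on that scale. Those of Igfbp7 were Hic1, Fbln2 and Loxl3 (r of at least 0.995), and those of Igfbp6 were Cxcl12, Axl and Ctsk (r of at least 0.992). Igfbp5 was closest to Adamts2, Mxra8 and Col3a1, a fibrillar collagen gene, and Igf1r to Fbn1, Ccnd2 and Col12a1. Igfbp4 was closest to Nov, Mgp and Ifit1, and Nov encodes another secreted protein with an IGFBP-like domain. By contrast, Igfbp2 was closest to Exoc3l, 2010007H12Rik and Foxd3, a transcription factor of pluripotent cells, and Igfbp3 to Ltb, Slc39a8 and Dsp. With 5 lines, high correlations arise easily among many genes, and they carry no test.

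A further 63 genes of the pathway were examined in 6 lists, and 55 of them were tested. Called genes numbered 10 in 16-6 against R1, of which 8 were higher, 10 in 32, of which 9 were lower, 11 in S8, of which 10 were lower, 5 in T2, all lower, and 14 between 16-6 and 32 (all higher in 16-6). As shares of the tested genes these were 18.2%, 18.2%, 20%, 9.09% and 25.5%, beside the shares of all genes given above. The calls of every iPSC line against R1 include Esm1, which passed the minimum level only through R1, so these counts run high by it. The medians over the 55 genes were 0.07, −0.11, −0.44, −0.01 and 0.25, against medians between −0.06 and −0.02 over all genes.

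Among ligands and receptors, Igf2, Igf2r and Insr were tested. Igf2 was lower than in R1 in 32 by −2.94 ± 0.05 (limma, adjusted p = 1.12e-05), in S8 by −2.05 ± 0.07 (adjusted p = 7.04e-05) and in T2 by −1.51 ± 0.07 (adjusted p = 0.000199), and it was not called in 16-6 at −0.27 ± 0.05. Igf2r, the receptor that removes IGF2 from the medium, measured 51.6 and 51.7 FPKM in R1, 54.1 in each 16-6 library, 34 and 33.1 in 32, 15 in S8 and 27.9 in T2. It was called in S8 alone, at −1.72 ± 0.04 (adjusted p = 4.9e-05), whereas its difference in T2 was −0.87 ± 0.04. The ratio of Igf2r to Igf1r was 2.47 in S8 and 2.49 in T2, and between 4.15 and 6.09 in the other libraries. Insr, the insulin receptor, was called in no comparison.

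Among the carriers, proteases and their inhibitors, 4 of 6 were tested. Pappa, the protease that cleaves IGFBP4, was higher in 16-6 than in R1 by 1.76 ± 0.09 (limma, adjusted p = 0.000232) and higher than in 32 by 2.72 ± 0.09. Stc1, which encodes an inhibitor of PAPP-A, was lower than in R1 in all 4 iPSC lines, as Igfbp4 was. Its level was 19.7 and 18 FPKM in R1, 3.82 and 3.81 in 16-6, 0.332 and 0.323 in 32, 0.694 in S8 and 1.31 in T2, and its differences from R1 lay between −3.90 in 32 and −2.04 in 16-6. Htra1, a secreted serine protease, was higher in 16-6 than in R1 by 1.55 ± 0.05, and Stc2, a relative of Stc1, was lower in 32 by −1.47 ± 0.10. The acid-labile subunit gene Igfals, whose product forms a complex with IGFBP3 in blood, stayed under 1 FPKM in every library.

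Of the 9 genes for secreted proteins related to the IGFBPs, 8 were tested. In 16-6, Ctgf was higher than in R1 by 2.23 ± 0.05 (limma, adjusted p = 5.7e-05) and Wisp1 by 2.21 ± 0.10, both genes of the CCN family, whereas Esm1, an endothelial proteoglycan gene, was lower by −1.27 ± 0.10. In 32, Nov, Esm1 and Wisp1 were lower, at −2.16, −1.71 and −1.58. Esm1 and Nov were lower in S8 (−1.59 and −1.20) and T2 (−1.65 and −1.34) too. Esm1 passed the minimum level only through R1, with 2.62 and 2.32 FPKM, so its calls against R1 carry no weight as support. The largest difference of the list was that of Wisp1 between 16-6 and 32, at 3.79 ± 0.10. In this list 6 of 8 genes were called between 16-6 and 32, all higher in 16-6, and its median was 1.30, beside 10.3% of all genes called (9.22% higher and 1.09% lower) and a median of −0.06. The 13 fibroblast markers were all higher in 16-6 than in 32 too, and their part in these pathway differences was not tested.

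Of the 31 genes of signalling inside the cell, all tested, 2 were called in 16-6 (6.45%, beside 7.11% of all genes), 2 in 32 (6.45% beside 9.77%), 4 in S8 (12.9% beside 16.7%), 0 in T2 (beside 10.5%) and 2 between 16-6 and 32 (6.45% beside 10.3%). The medians of the list lay between −0.30 and 0.04. In T2, 17 of the 31 had an adjusted p under 0.05 without reaching 2-fold, and the share of all genes that did so was not taken. Akt1, a kinase downstream of the receptor, was higher in 16-6 than in R1 by 1.11 ± 0.06 (limma, adjusted p = 0.000265), and Grb10, an adaptor that dampens receptor signalling, was at the criterion with 1.00 ± 0.06. In S8, Rictor, Foxo3 and Pdpk1 were lower by −1.52, −1.39 and −1.20. Irs2, a receptor substrate, was higher in 32 by 1.00 ± 0.06, and the adaptor Grb14 was lower there by −1.30 ± 0.09. In the growth hormone axis, 6 of 8 genes were tested, and Ghr, the growth hormone receptor, was higher in 16-6 by 1.17 ± 0.09 and lower in S8 by −1.51 ± 0.12. Jak2, the kinase that acts with this receptor, was lower than in R1 in S8 by −1.86 ± 0.09 and in 32 by −1.07 ± 0.07, and both genes were higher in 16-6 than in 32, by 1.82 ± 0.09 for Ghr and 1.45 ± 0.07 for Jak2. None of the 3 genes for IGF2 mRNA-binding proteins was called in any comparison (limma), though 2 or 3 of them had an adjusted p under 0.05 without reaching 2-fold in each. Here too the share of all genes with such a p was not taken.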

How the data were processed

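RNA-Seq libraries of the ESC line R1 (n = 2) and the iPSC lines 16-6 (n = 2), 32 (n = 2), S8 (n = 1) and T2 (n = 1) were analysed, with groups and replicate numbers from the sample titles. The authors enriched mRNA with oligo(dT), mapped reads to mm9 with TopHat 2.0.4 and deposited FPKM with confidence limits from Cufflinks. The submitters' processing notes name Cufflinks 2.0.0, and the paper gives another release. The options of Cufflinks and the use of strand are not given in the sources used here. The deposited FPKM have nearly equal upper quartiles, and the fragments behind a value were estimated from its limits, by dividing 2 times the FPKM by its distance to the upper limit and squaring the result. Under 50 fragments, 80.9% to 82.3% of these estimates were whole to within 0.01.

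Every value was divided by 12725.7, which set the median library total to 1000000. Entries with at least 1 FPKM in at least 1 library were kept, and limma 3.58.1 in R 4.3.3 (lmFit, then eBayes with a trend) was run on log2(FPKM + 1), with 1 mean per line, all 8 libraries and 3 residual degrees of freedom. Benjamini-Hochberg adjustment was made over the 13693 tested genes in each comparison. S8 and T2 were not tested against each other. A line was described as apart from the next in order where the lowest lower limit of its libraries exceeded the highest upper limit of the next.

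All members are named. From each pathway list and comparison no more than the 3 called genes with the largest absolute difference may be named with a difference, apart from ligands and receptors. Markers and untested ligands are named by level. The members and lists were chosen with earlier results of these data known, and no p was adjusted over a list. The fit was tested on simulated data. Same-numbered replicates of different lines did not deviate together (correlation between −0.097 and 0.028), so the main fit has no block. Replicate libraries differed by slightly more than counting noise, with a chi-square per gene of 1.34 in R1, 1.08 in 16-6 and 1.29 in 32. The SEs rest on this small spread, and how far it covers variation between cultures was not tested. Promoter windows came from RefSeq (GRCm38.p6). Python 3.11.15, pandas 2.3.3, numpy 2.4.6, scipy 1.17.1 and matplotlib 3.10.9 were used.

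Alternatives were a pseudocount of 0.1, other minimum levels, quantile normalization, equal library totals, eBayes with no trend, dropping the fold minimum, leaving out each replicate, the 6 replicated libraries alone, and a replicate block. The mean of the 16-6 libraries as 1 sample, and a pseudocount of 0.1 with no minimum, were added after seeing the data. Nucleosome data were not analysed here.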

Additional observations from a re-analysis of the deposited data

How the results depend on the processing

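For the 35 member differences, 516 values under the alternatives kept direction and side of the criteria and 16 did not. Exceptions without a call were Igfbp7 in S8 against R1, which ranged from −0.09 to 0.03 when a replicate was left out and was 0.03 without R1 replicate 1, Igfbp6 in T2 (0.02 with quantile normalization, 0.01 with equal library totals), Igfbp7 in T2 (0.04 with equal totals), and, in 16-6 against 32, Igfbp2 (0.08 with quantile normalization, 0.26 with equal totals) and Igfbp3 (0.03 with equal totals). Igfbp5 in S8 passed the 2-fold criterion at −1.10 with a pseudocount of 0.1 or equal totals, and Igfbp6 in 16-6 at 1.07 with a pseudocount of 0.1 and 1.03 with quantile normalization. Igf1r in 16-6 against 32 lost its call at 0.82 with quantile normalization. The cause was not tested. Under equal totals the median difference over all genes was −0.31 in 32, −0.15 in S8 and 0.21 in 16-6 against 32, beside −0.02, −0.03 and −0.06 in the main fit, and differences under that setting are read against these medians. The share of calls that were higher was 15.8% in 32 in the main fit, 34.2% with quantile normalization and 5.31% with equal totals, 41.6% against 29.6% with equal totals in S8, and 37.6% against 48.4% with equal totals in T2.

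With no fold minimum, called members numbered 6 in 16-6, 7 in 32, 5 in S8 and 5 in T2 against R1, and called pathway genes 38, 40, 46 and 31, and 39 in 16-6 against 32. The share of all tested genes under that setting was not taken, so these counts are no result about the members or the pathway. In S8, called members rose from 1 to 2 with a pseudocount of 0.1 or equal totals, and to 3 with a pseudocount of 0.1 and no minimum, and pathway genes from 11 to 19 and 18 with these pseudocounts. In T2 members rose from 1 to 2 with a pseudocount of 0.1 and no minimum, and pathway genes from 5 to 8 with a pseudocount of 0.1 and to 9 without the minimum too. With a pseudocount of 0.1, calls over all genes rose from 974 to 1690 in 16-6, from 1338 to 2258 in 32, from 2283 to 3172 in S8 and from 1437 to 2198 in T2. Without the minimum too, they were 3745 in S8 and 2679 in T2, among 19266 genes.

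Leaving out each replicate gave 2 to 3 called members in 16-6 against R1, and 4 in 32, 1 in S8, 1 in T2 and 5 in 16-6 against 32 throughout. Pathway genes ranged over 10 to 11, 10, 11 to 12, 5 to 6 and 13 to 14. The replicate numbers did not pair the samples. With the replicate block the called members were 2, 4 and 5 in 16-6 against R1, 32 against R1 and 16-6 against 32, and calls over all genes were 965, 1339 and 1410, beside 974, 1338 and 1412. Genes at few fragments, Igf1, Igfbp1 and Igfbp6 in 32, are limited by depth.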
